A study of Mus musculus with 12 samples.

Results

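The genes described here are 34 genes by which astrocytes are recognized in mouse brain. They were taken as a fixed list of symbols, 34 of the 23282 gene rows in the count tables, and each symbol was found on 1 row. The list holds 3 genes of the reactive state (Gfap, Vim and Serpina3n), and 31 other genes of metal binding, transport, metabolism, secretion, signalling and transcription. RNAseq was performed on the striatum and the cortex of R6/2 mice, a model of Huntington's disease (HD), and of their wild-type (WT) littermates. HD mice were sampled at 8 weeks, before symptoms, and at 13 weeks, after symptom onset, with 2 libraries for each region and age. WT littermates of 8 weeks and of 13 weeks gave 1 library for each region and age, so that 12 libraries were available in all. R6/2 mice carry a transgene for the N-terminal part of mutant human huntingtin, driven by the human HTT promoter and therefore not restricted to a cell type, and no group received an agent. Whole tissue was used, and the sources used here do not state the number of mice per library or whether the striatum and cortex libraries of 1 number come from the same mouse. P-values therefore measure the spread between these libraries.

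Astrocytes take up the glutamate that neurons release, convert it to glutamine, buffer potassium and bicarbonate, and wrap blood vessels with endfeet rich in water channels. After injury or in neurodegeneration they can become reactive, a state in which the intermediate filament proteins GFAP and vimentin and secreted protease inhibitors rise. In the striatum of HD patients and mice, astrocytes have been studied for reduced glutamate uptake and potassium buffering as well as for reactivity.

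The tables gave raw counts of 3′ reads per gene, and the total per library lay between 8814386 and 12091201. Levels are given as CPM, counts brought to a common library size and scaled by TMM, a factor computed from the bulk of genes that removes differences in composition between libraries. All 34 genes passed the filter on low counts in every comparison, with at least 12 counts (Agt) in every library. The precursor of ribosomal RNA, Rn45s, took 10.5% to 15.2% of the counts in HD libraries and 4.32% to 5.62% in WT libraries. Striatal projection neuron markers summed to 1326 CPM or more in every striatal library and to at most 359.6 CPM in every cortical library, although Drd2, a defining marker, stood at 0.353 CPM or less throughout. The female-specific Xist and Y-linked genes marked HD replicate 1 of each group as male and replicate 2 as female, the 13-week WT libraries as female and the 8-week WT libraries as male. Sex and age therefore cannot be told apart in WT mice.

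The libraries of 8-week HD striatum stood apart from each other. Replicate 2 held higher levels of several marker lists than replicate 1. The median log2 difference was 2.51 over 8 oligodendrocyte markers and 2.83 over 5 markers of ependyma and choroid plexus. It was 3.92 over the 3 thalamic markers with counts in both libraries. For 7 striatal projection neuron markers the median was -1.69. Of the 34 astrocyte genes, 30 were higher in replicate 2, with a median of 0.56. In 13-week HD cortex, replicate 2 held 2963 CPM of Ttr, a choroid plexus gene, against 66.6 in replicate 1. The part of these differences in the results was not tested.

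**Figure D1:**
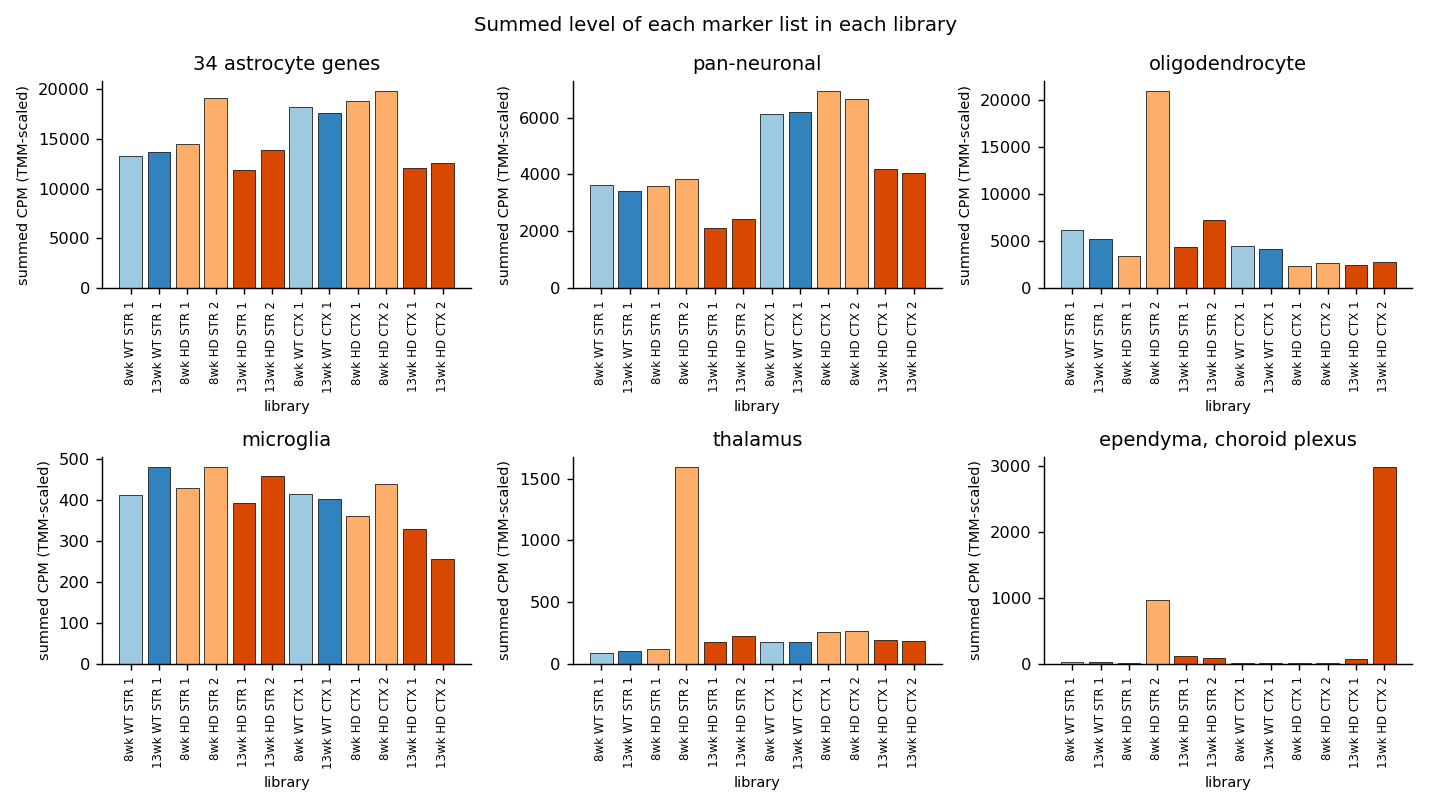
Summed level of 6 marker lists in each of the 12 libraries, in TMM-scaled CPM on linear axes that start at 0. Light blue bars are 8-week WT, dark blue 13-week WT, light orange 8-week HD and dark orange 13-week HD. The astrocyte sum was 11835 to 13890 CPM in 13-week HD mice, and the oligodendrocyte sum of 8-week HD striatum replicate 2 was 21006 CPM against 3413 in replicate 1.

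The sum of the 34 genes was lower in 13-week than in 8-week HD mice in both regions. It was 11835 and 13890 CPM in 13-week HD striatum and 14516 and 19083 CPM in 8-week HD striatum. In cortex it was 12064 and 12622 CPM at 13 weeks and 18843 and 19831 CPM at 8 weeks. WT libraries held 13327 CPM at 8 weeks and 13717 CPM at 13 weeks in striatum, and 18199 and 17569 CPM in cortex. The sum is weighted toward abundant genes such as Sparcl1, at 3428 and 3755 CPM in 13-week and 5169 and 5876 CPM in 8-week HD cortex. With library totals in place of TMM, the mean sums of HD mice at 13 and 8 weeks were 13943 and 16056 CPM in striatum. In cortex they were 13045 and 17265 CPM. In whole tissue, fewer astrocytes and less RNA of these genes per astrocyte cannot be told apart.

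The main comparison set 13-week against 8-week HD mice over both regions, with 4 libraries at each age. Of the 34 genes, 7 fell and none rose at an adjusted p-value under 0.05 in edgeR's quasi-likelihood test, where p-values were adjusted over all genes tested. Of all 13944 genes tested, 6.45% changed, 4.53% downward and 1.93% upward. The genes that fell were Slc1a2, Slc4a4, Ttyh1, Ntsr2, Ndrg2, Mt1 and Mt2, and 17 of the 34 had an unadjusted p-value under 0.05, as had 22.6% of all genes tested. The log2 fold change was negative for 28 of the 34 genes, with a median of -0.39, while the median over all genes tested was 0.00. All 3 reactive genes had a positive fold change, and none of them passed the test. In 10 genes every 13-week library lay below every 8-week library within each region, which held for 11.3% of all genes tested. These were the 7 genes above with Gja1, Clu and Cst3, and no astrocyte gene lay above without overlap, against 9.35% of all genes tested.

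The number of genes called depended on single libraries. The shares of all genes called in the same fits are not given here, so the counts have no background beside them. With 1 library left out, the median over all genes tested lay between -0.0086 and 0.0147. Leaving out any 1 library of 13-week HD mice or of 8-week HD cortex left 2 or 3 genes past the threshold, and Slc1a2 and Ttyh1 were among them each time. Without 8-week HD striatum replicate 1, 17 genes fell and the median was -0.56. Without replicate 2, the library that stood apart, 8 genes fell, Slc1a3 beside the 7 above, with a median of -0.28 and 26 of 34 fold changes negative.

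Scaling changed the size of these differences. With library totals in place of TMM, the median of all genes moved to 0.21 and that of the 34 genes to -0.19, and 25 of the 34 fold changes were negative. Under that scaling 4 genes fell (Slc1a2, Slc4a4, Ttyh1 and Ntsr2) and 1 rose, Vim. The share of all genes called under that scaling is not given here.

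**Figure D2:**
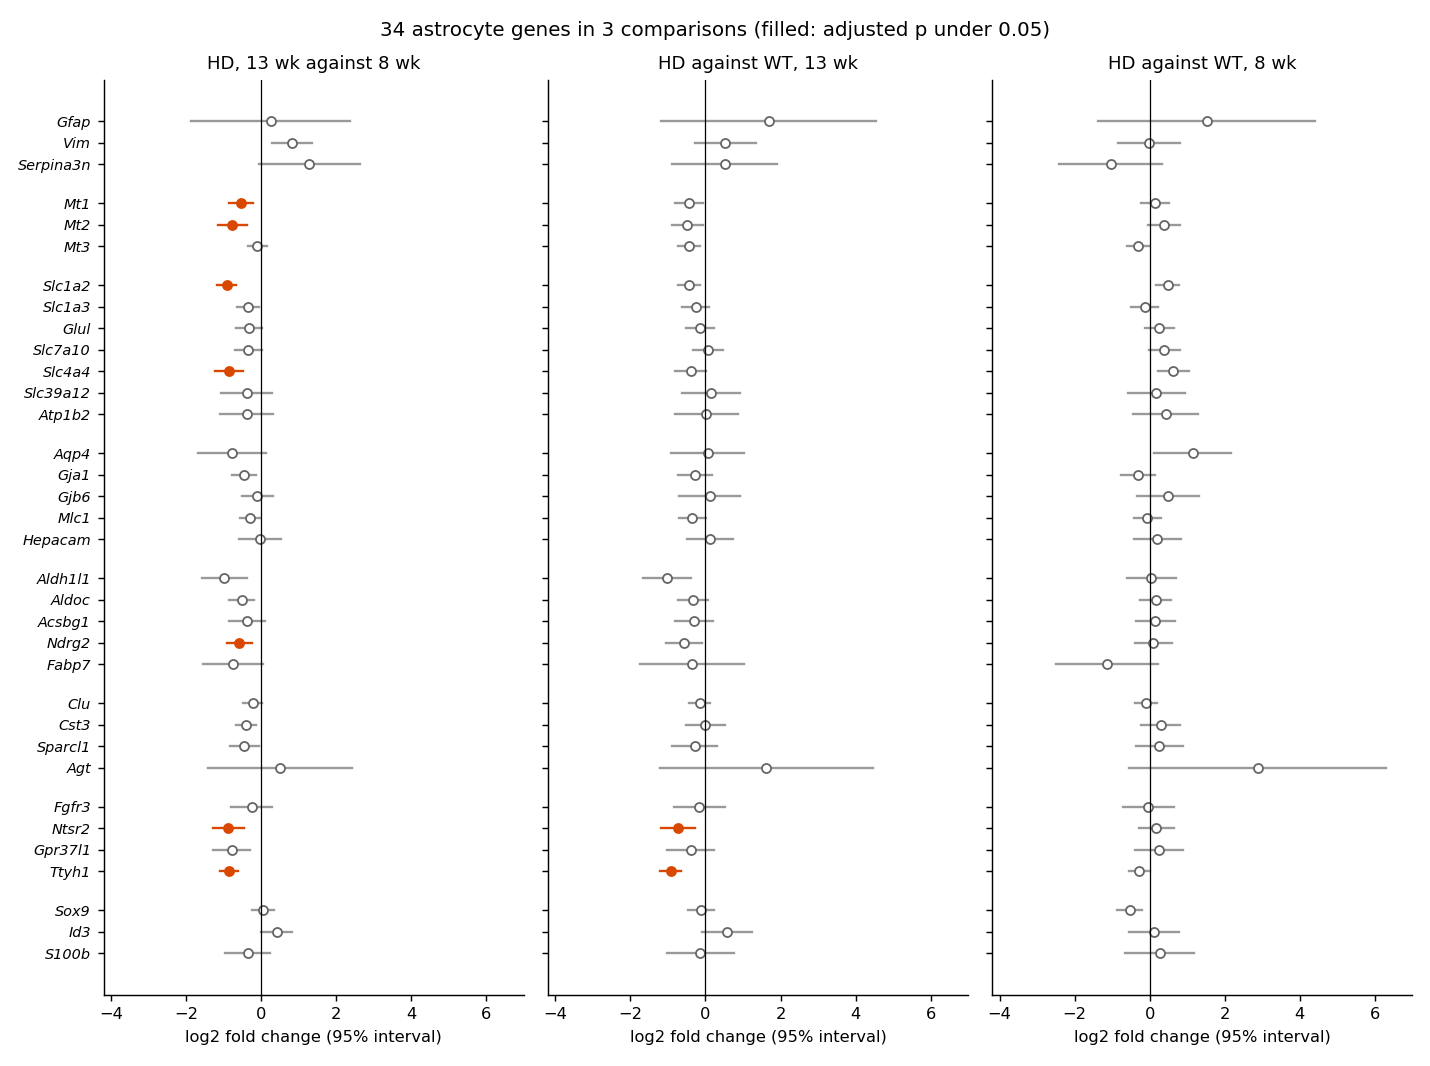
Log2 fold change of the 34 astrocyte genes in 3 comparisons, with 95% intervals as lines, from edgeR fits to TMM-scaled counts. Filled points mark genes with an adjusted p-value under 0.05. In HD mice, 28 of 34 points lie left of 0 between 8 and 13 weeks, against WT mice 23 lie left of 0 at 13 weeks and 11 at 8 weeks.

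Glutamate, solute and ion transport was the largest group. All 7 of its genes had a negative fold change between 8 and 13 weeks in HD mice, with a median of -0.39, and 2 of them fell. Slc1a2 encodes GLT-1, the transporter that clears most synaptic glutamate. It was at 1223 and 1358 CPM in 13-week HD striatum and at 2568 and 2091 CPM in 8-week HD striatum. In cortex it was at 1746 and 1905 CPM at 13 weeks and at 3710.5 and 3667 CPM at 8 weeks. WT libraries lay between these groups in each region, at 1857 and 1826 CPM in striatum and 2338 and 2417 CPM in cortex for 13 and 8 weeks. The groups of HD mice did not overlap in either region. Slc1a2 was 1.89 times lower at 13 weeks, a log2 fold change of -0.92 (SE 0.12, adjusted p = 0.0036 in edgeR), and stayed called under all 18 alternatives, where it lay between -0.99 and -0.72.

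Slc4a4 encodes NBCe1, the sodium bicarbonate cotransporter of astrocytes. It was at 156 and 209.9 CPM in 13-week HD striatum and at 254 and 286 CPM in 8-week HD striatum. In cortex the values were 74.3 and 65.3 CPM against 151 and 166 CPM. The HD groups did not overlap in either region, and the cortical values at 13 weeks were also below both WT cortical libraries (108 and 106 CPM). The log2 fold change was -0.86 (SE 0.16, adjusted p = 0.0165 in edgeR, 7.50e-05 to 0.0789 over the alternatives). The other 5 genes of the group did not pass the test. Slc1a3, the GLAST glutamate transporter, was at 411 and 369.8 CPM against 562 and 375 CPM in striatum and at 369.5 and 382 CPM against 528 and 521 CPM in cortex. Its striatal libraries overlapped through replicate 2 of the 8-week mice, which stood apart. It had a log2 fold change of -0.36 (adjusted p = 0.151). Glul, the glutamine synthetase gene, had a log2 fold change of -0.33 (adjusted p = 0.249). Slc7a10, an exchanger of small neutral amino acids, Slc39a12, a zinc transporter, and Atp1b2, a sodium pump subunit, lay between -0.39 and -0.34.

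Among receptors and membrane proteins, 2 of 4 genes fell. Ttyh1 encodes a tweety family membrane protein, linked to anion channels. It was at 235 and 273 CPM in 13-week HD striatum and at 456 and 420.3 CPM in 8-week HD striatum. In cortex it was at 230.2 and 232 CPM against 457 and 451 CPM. All 4 libraries of 13-week HD mice lay below all other 8 libraries, the lowest of which held 420.3 CPM. The log2 fold change was -0.87 (SE 0.11, adjusted p = 0.00357 in edgeR), or 1.83 times lower, and Ttyh1 stayed called under all 18 alternatives, between -0.94 and -0.67.

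Ntsr2, a neurotensin receptor found mainly on astrocytes, was at 82.1 and 84.3 CPM in 13-week HD striatum and at 97.5 and 169 CPM in 8-week HD striatum. In cortex it was at 48.3 and 44.6 CPM against 89.2 and 109 CPM. The cortical values fell below all 4 other cortical libraries, while the striatal gap rested in size on the library that stood apart. The log2 fold change was -0.87 (SE 0.18, adjusted p = 0.0238 in edgeR), and -0.74 with an adjusted p of 0.0175 without that library. Gpr37l1, an orphan receptor of astrocytes, was at 141 and 181 CPM against 162 and 324 CPM in striatum and at 123 and 119 CPM against 218 and 267 CPM in cortex. It did not pass the test (-0.79, adjusted p = 0.0701), nor did Fgfr3, a fibroblast growth factor receptor (-0.26, adjusted p = 0.585).

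The metallothioneins are small cysteine-rich proteins that bind zinc and copper. Mt1 and Mt2 are induced by metals and glucocorticoids in many tissues, while Mt3 is the brain form. The 3 genes lie on the same strand within 27.7 kb of chromosome 8, Mt3 at 94152607 to 94154146, Mt2 at 94172664 to 94173568 and Mt1 at 94179082 to 94180327 (GRCm38, GENCODE M21). The bases before the start sites of Mt2, which fell, and of Mt3, which did not pass the test, are shown. These 2 neighbours differ in the number of matches to the pattern marked below. Each runs 5′ to 3′ over the 250 bases before the RefSeq start on the plus strand of GRCm38.p6, at chr8:94172368-94172617 for Mt2 and chr8:94152357-94152606 for Mt3. Capitals mark matches to TGCNCNC on either strand (GNGNGCA on the other). This pattern is looser than the metal response element core TGCRCNC, in which R is A or G. The Mt3 match and the GGGAGCA and TGCTCTC of Mt2 have T in place of R, so they are not matches to that core.
Mt2: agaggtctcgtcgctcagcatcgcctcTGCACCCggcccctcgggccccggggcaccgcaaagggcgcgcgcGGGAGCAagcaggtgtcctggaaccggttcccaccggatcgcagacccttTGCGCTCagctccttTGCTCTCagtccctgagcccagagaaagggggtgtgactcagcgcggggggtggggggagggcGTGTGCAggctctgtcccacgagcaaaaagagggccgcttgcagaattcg
Mt3: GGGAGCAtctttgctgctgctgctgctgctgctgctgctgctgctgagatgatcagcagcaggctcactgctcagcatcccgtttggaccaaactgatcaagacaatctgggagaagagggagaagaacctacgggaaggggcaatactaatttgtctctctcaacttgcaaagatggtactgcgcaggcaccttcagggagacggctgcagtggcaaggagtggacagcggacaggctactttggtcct
The Mt2 window held 5 matches and the Mt3 window 1. That of Mt1, which fell as Mt2 did, also held 1. Whether the matches bear on the levels was not tested. Of 32851 windows of this length before RefSeq starts, 44.4% held at least 1 match and 1.28% held 4 or more, so single matches are common. Windows were found for 29 of the 34 genes, 4 of them with more than 1 start, and 16 of the 29 genes held a match to TGCNCNC in a window. The STAT site TTCNNNGAA, which is its own reverse complement, was found for 5 of the 29 genes and in 7.02% of all windows, and the palindrome of nuclear factor 1 for none and in 0.0365%. A match is a run of letters and not a tested binding site.

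Mt1 was at 702 and 796 CPM in 13-week HD striatum, at 891 and 1095 CPM in 8-week HD striatum, at 586 and 444 CPM in 13-week HD cortex and at 807 and 862 CPM in 8-week HD cortex. Mt2 was at 307 and 237 CPM and at 367 and 452 CPM in the same striatal groups, and at 239 and 153 CPM and at 391 and 374 CPM in cortex. For both genes the 13-week libraries lay below the 8-week libraries in each region, with the lowest values in cortex. Mt1 fell by 0.54 on the log2 scale (SE 0.14, adjusted p = 0.0479 in edgeR, 0.00429 to 0.162 over the alternatives) and Mt2 fell by 0.77 (SE 0.17, adjusted p = 0.028, 0.000763 to 0.109 over the alternatives). Mt3 was at 102 to 115 CPM in 13-week and at 102 to 127 CPM in 8-week HD libraries, with overlap in cortex and none in striatum, and had a log2 fold change of -0.11 (adjusted p = 0.634). How reads shared by these similar genes were counted is not given in the sources used here.

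**Figure D3:**
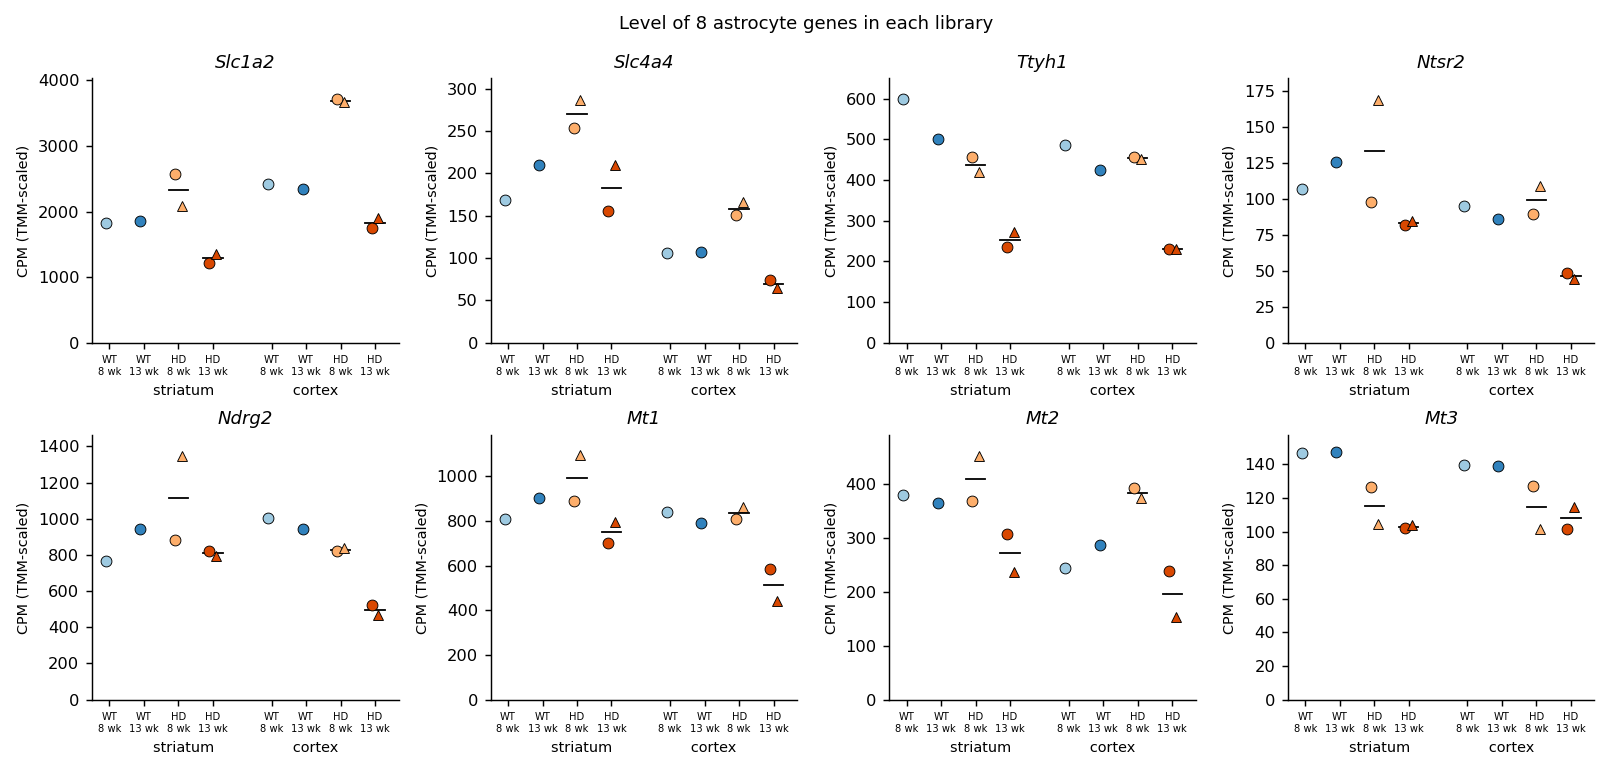
Level of 8 astrocyte genes in each of the 12 libraries, in TMM-scaled CPM on linear axes from 0. Circles are replicate 1 (male in HD groups), triangles replicate 2 (female), black bars the mean of the 2 libraries of an HD group, and WT groups have 1 circle each. Slc1a2 of 13-week HD mice lies at 1223 to 1905 CPM and of 8-week HD mice at 2091 to 3710.5 CPM, and the 13-week HD values of Ttyh1 lie below all other libraries.

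Among metabolic enzymes and lipid binding proteins, all 5 fold changes were negative and 1 gene, Ndrg2, passed the test. NDRG2 is an astrocyte protein of the alpha/beta hydrolase fold. It was at 823 and 793 CPM in 13-week HD striatum, at 884 and 1348 CPM in 8-week HD striatum, at 525 and 469 CPM in 13-week HD cortex and at 822 and 838 CPM in 8-week HD cortex. The striatal values at 13 weeks lay close below replicate 1 of the 8-week mice, and the cortical gap was wider. Ndrg2 fell by 0.59 on the log2 scale (SE 0.15, adjusted p = 0.0442 in edgeR, 0.0013 to 0.158 over the alternatives). Aldh1l1, a folate enzyme much used as an astrocyte marker, had the lowest fold change of all 34 genes (-0.98, adjusted p = 0.0579). It was at 6.80 and 9.51 CPM in 13-week HD striatum, at 9.37 and 16.5 CPM in 8-week HD striatum, at 9.36 and 6.44 CPM in 13-week HD cortex and at 21.5 and 17.7 CPM in 8-week HD cortex, with overlap in striatum only. Aldoc, the brain aldolase, had a log2 fold change of -0.52 (adjusted p = 0.068), Acsbg1, an acyl-CoA synthetase, of -0.39 (adjusted p = 0.321) and Fabp7, a fatty acid binding protein, of -0.77 (adjusted p = 0.241).

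None of the 5 genes of the water channel, gap junctions and endfeet passed the test, although all 5 fold changes were negative. Gja1, the connexin 43 gene, did not overlap in either region (60.2 to 62.5 CPM at 13 weeks against 71.3 to 114 CPM at 8 weeks) and had a log2 fold change of -0.46 (adjusted p = 0.0909). Aqp4, the water channel of endfeet, had a log2 fold change of -0.78 (adjusted p = 0.281), but its 8-week striatal libraries held 49.1 and 162 CPM. The 13-week values of 34.2 and 65.6 CPM overlapped with them, and without 8-week HD striatum replicate 2 the fold change was -0.28 (adjusted p = 0.512). Gjb6, the connexin 30 gene, and Mlc1 and Hepacam, membrane proteins of the endfoot junctions, lay between -0.30 and -0.03.

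Of the 4 secreted proteins none passed the test. Clu, an apolipoprotein (-0.23, adjusted p = 0.241), and Cst3, the cysteine protease inhibitor cystatin C (-0.42, adjusted p = 0.0676), did not overlap between the ages, and Sparcl1, a matrix protein that promotes synapses, had a log2 fold change of -0.45 (adjusted p = 0.154). Agt, angiotensinogen, had a positive fold change of 0.51 (adjusted p = 0.766), which was 1.73 without 8-week HD striatum replicate 2 (adjusted p = 0.328). Sox9, a transcription factor of astrocyte identity (0.04, adjusted p = 0.892), and Id3, an inhibitor of helix-loop-helix factors (0.42, adjusted p = 0.218), were the other genes outside the reactive group with a positive fold change. S100b, a calcium-binding protein, was at 622 and 678 CPM against 445 and 1036 CPM in striatum and at 438 and 276 CPM against 521 and 523 CPM in cortex, where it did not overlap. It had a log2 fold change of -0.36 (adjusted p = 0.475).

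None of the 3 reactive genes passed the test, and Gfap differed more between replicates than between ages. It was at 24.5 and 109 CPM in 13-week HD striatum, at 11.2 and 139 CPM in 8-week HD striatum, at 26.6 and 81.4 CPM in 13-week HD cortex and at 20.6 and 47.6 CPM in 8-week HD cortex. The ages overlapped in striatum and in cortex, and within each group replicate 2 held the higher value. Replicate 2 is female and replicate 1 male in each HD group, so sex and replicate number cannot be told apart. The log2 fold change was 0.25 (SE 0.88, 95% interval -1.87 to 2.37, adjusted p = 0.903 in edgeR). Without 8-week HD striatum replicate 2 it was 1.33 (adjusted p = 0.479), and in 4 of the 8 fits that left out a library it was below 0.

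Vim was at 44.7 and 46.6 CPM in 13-week HD striatum and at 18.7 and 25.6 CPM in 8-week HD striatum, without overlap. In cortex it was at 35.9 and 72.9 CPM against 30.7 and 41.6 CPM, with overlap, and its highest value came from the library rich in Ttr. The log2 fold change was 0.82 (SE 0.24, 95% interval 0.28 to 1.36, adjusted p = 0.0762 in edgeR). It passed the threshold in DESeq2 (0.81, adjusted p = 0.0201), with library totals (1.03, adjusted p = 0.0278), with the replicate number or, equally, sex as a term (0.82, adjusted p = 0.0308) and without 13-week HD cortex replicate 1 (1.05, adjusted p = 0.0339). Without the library rich in Ttr the fold change was 0.65 (adjusted p = 0.252), and without 8-week HD striatum replicate 2 it was 0.86 (adjusted p = 0.0751). Over the 18 alternatives the adjusted p lay between 0.0201 and 0.252.

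Serpina3n was at 4.47 and 19.0 CPM in 13-week HD striatum, at 1.99 and 7.32 CPM in 8-week HD striatum, at 7.73 and 25.2 CPM in 13-week HD cortex and at 6.81 and 7.28 CPM in 8-week HD cortex. Cortical libraries did not overlap between the ages and striatal libraries did. The fold change was the largest positive one of the 34 genes, at 1.28 (SE 0.58, adjusted p = 0.242 in edgeR), with 17 to 285 counts per library behind it. Neither the replicate block nor DESeq2 brought it past the threshold (adjusted p = 0.081 and 0.0982), and over the 18 alternatives its adjusted p reached 0.533.

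**Figure D4:**
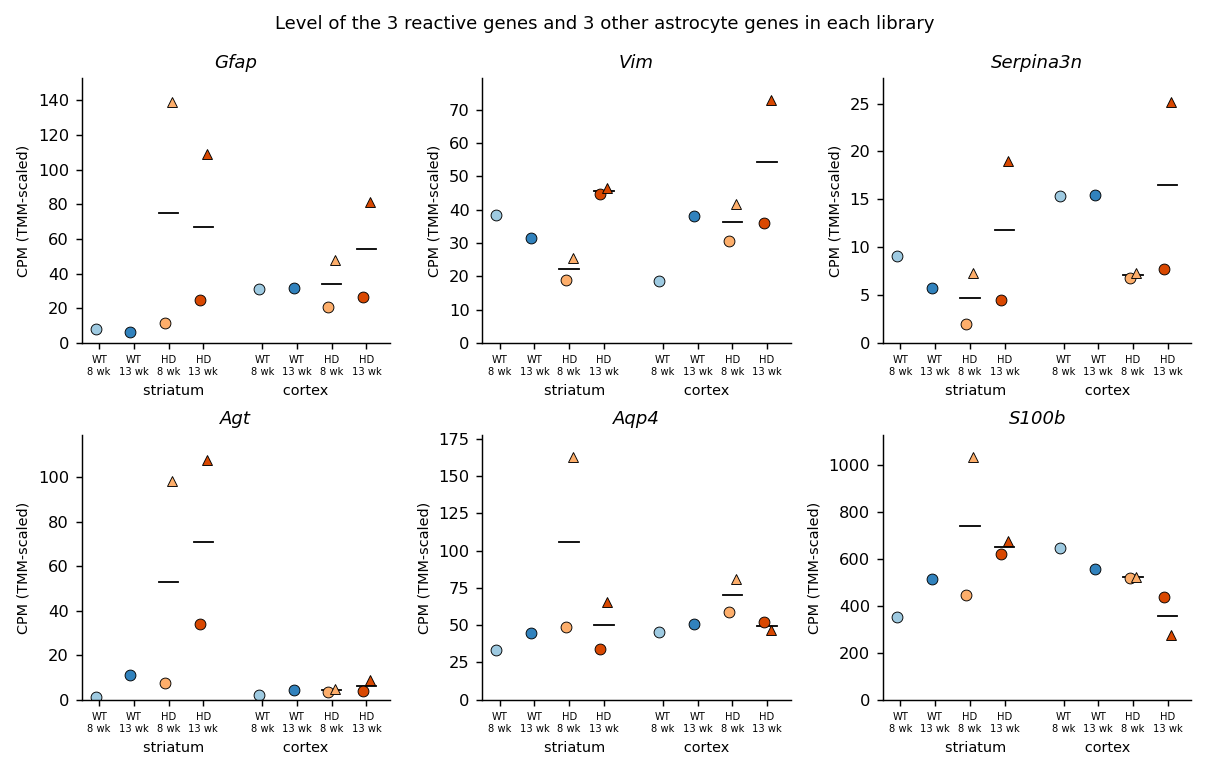
Level of the 3 reactive genes and of Agt, Aqp4 and S100b in each library, in TMM-scaled CPM on linear axes from 0, with symbols as in the plot of 8 genes by library. Gfap lies at 47.6 to 139 CPM in the 4 triangles (HD replicate 2) and at 11.2 to 26.6 CPM in the 4 HD circles (replicate 1). Agt lies at 33.9 to 108 CPM in 3 libraries of HD striatum and at or below 11.2 CPM in the others.

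Other reactive markers were read from 3 lists in common use, genes shared by reactive states (pan-reactive), genes raised by inflammatory stimuli (A1) and genes raised after ischemia (A2). Between 8 and 13 weeks in HD mice none of the 6 pan-reactive, 10 A1 and 5 A2 genes tested passed the threshold, with medians of 0.30, 0.14 and -0.20, and 1, 2 and 0 of them had an unadjusted p-value under 0.05. Of the 10 pan-reactive genes listed, some had too few counts to test, among them Lcn2, Steap4 and Cxcl10, which stood at 0.745 CPM or less in every library.

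Markers of other cells moved between the ages as well. All 5 pan-neuronal markers fell (median -0.73) and so did the striatal projection neuron markers Ppp1r1b (-1.78) and Penk (-1.81) and 1 of 4 markers of oligodendrocyte precursors (Gpr17, -1.48). None of 8 oligodendrocyte, 8 microglial, 6 endothelial or 4 mural markers passed the test, with medians of -0.68, -0.24, 0.01 and -0.26. The summed pan-neuronal level was 2104 to 2438 CPM in 13-week and 3608 to 3826 CPM in 8-week HD striatum, and 4048 to 4174 CPM against 6663 to 6937 CPM in cortex. Their part in the astrocyte result was not tested.

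When the ages were compared by region, 3 genes fell in cortex and none passed the test in striatum. The cortical genes were Slc4a4 (-1.19, adjusted p = 0.0366 in edgeR), Slc1a2 (-1.02, adjusted p = 0.0401) and Ttyh1 (-0.98, adjusted p = 0.0351), and 0.591% of all genes tested passed, 0.556% downward and 0.0347% upward. In cortex 28 of the 34 fold changes were negative, with a median of -0.54. With library totals 25 were negative, the median was -0.28 and that of all genes 0.25. Leaving out any library other than those of 8-week HD striatum left no gene past the threshold in cortex. Without replicate 1 or 2 of 8-week HD striatum, which are not part of the cortical contrast but share its fit, more genes passed. The cortical median was then -0.54 or -0.51, beside 0.00 or 0.02 over all genes tested.

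In striatum 7 genes had an unadjusted p-value under 0.05, as had 13.0% of all genes tested, and 0.16% of all genes tested passed after adjustment, 0.146% downward and 0.0139% upward. The adjusted p of Ttyh1 was 0.0942 (-0.75) and that of Slc1a2 0.0961 (-0.81), and DESeq2 called both genes. The striatal median was -0.28 with 27 of 34 fold changes negative. It depended on the library that stood apart. Without 8-week HD striatum replicate 2 the median was 0.02 with 16 of 34 negative, beside 0.02 over all genes tested. Without replicate 1 the median was -0.58, also beside 0.02 over all genes tested. Without 13-week HD striatum replicate 1 the median was -0.17, and with library totals it was -0.13 beside 0.16 over all genes. Whether the change with age differed between the regions was not tested.

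The comparisons with WT mice use the same HD libraries as those above, so their values are not independent of them. HD mice at 13 weeks were set against WT littermates to ask which of these genes separate the genotypes after symptom onset. The test has no spread of its own for WT littermates, which gave a single library at each age in a region, and both WT libraries of an age are of 1 sex. Rn45s also took a larger share in every HD library (10.5% to 15.2%) than in every WT library (4.32% to 5.62%). That difference between libraries cannot be told apart from genotype. Of the 34 genes 2 were lower in HD mice and none higher. Of all 14706 genes tested, 7.36% passed, 4.26% lower and 3.1% higher. These shares are of the main fit, and calls of other fits below have no background beside them. Ttyh1 was 1.91 times lower (-0.93, SE 0.13, adjusted p = 0.00234 in edgeR), with 235 and 273 CPM against 501 CPM in striatum and 230.2 and 232 CPM against 424 CPM in cortex. Ntsr2 had a log2 fold change of -0.73 (SE 0.21) and an adjusted p of 0.04997, next to the threshold, with 82.1 and 84.3 CPM against 126 CPM in striatum and 48.3 and 44.6 CPM against 85.9 CPM in cortex. Over the alternatives the adjusted p of Ntsr2 lay between 0.017 and 0.340, and without the 13-week WT striatum library no gene passed (Ttyh1, adjusted p = 0.0791). Without 8-week HD striatum replicate 2, 5 genes passed, Mt3, Slc1a2 and Aldh1l1 beside Ttyh1 and Ntsr2, which DESeq2 called too.

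The median of the 34 genes was -0.22 at 13 weeks, beside 0.01 over all genes tested, and 23 fold changes were negative. The median was -0.0757 without the 13-week WT cortex library, with 21 negative, and -0.31 without the striatum library, with 28 negative. It was -0.11 with the sex term, -0.13 with library totals and -0.36 with the replicate number as a term. That last term takes the HD level at replicate 1, which is male, while the WT libraries of this age are female. In 12 genes both HD libraries lay below the WT library in each region (Mt1, Mt2, Mt3, Slc1a2, Slc1a3, Gja1, Mlc1, Aldh1l1, Ndrg2, Clu, Ntsr2 and Ttyh1), which held for 22.6% of all genes tested, and no gene lay above in this way, against 21.4%. Slc1a2 had a log2 fold change of -0.44 (SE 0.14, adjusted p = 0.0721), Mt1 of -0.44 (adjusted p = 0.136), Mt2 of -0.48 (adjusted p = 0.153), Slc4a4 of -0.40 (adjusted p = 0.235) and Ndrg2 of -0.57 (adjusted p = 0.149).

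Gfap had the largest positive fold change against WT mice at 13 weeks, 1.69 with an SE of 1.26 (adjusted p = 0.492). In striatum HD libraries held 24.5 and 109 CPM against 6.48 CPM in the WT library, and in cortex 26.6 and 81.4 CPM against 31.9 CPM. HD values lay above WT in striatum and on both sides of it in cortex. The female HD libraries (109 and 81.4 CPM) lay above the WT libraries, also female, in both regions. The male ones (24.5 and 26.6 CPM) lay above in striatum and below in cortex. Vim (0.52, adjusted p = 0.459) and Serpina3n (0.51, adjusted p = 0.704) did not pass the test. Serpina3n was -0.45 with the replicate number as a term, which sets the male HD level of replicate 1 against female WT libraries. Its other fits over all libraries reached up to 0.99. Of the 7 pan-reactive, 10 A1 and 7 A2 genes tested, 1 passed. It was H2-D1, a class I histocompatibility gene of the A1 list, which was higher in HD mice (1.38, adjusted p = 0.0462). The medians of the lists, in that order, were 0.06, 0.19 and -0.26. Of the markers of other cells, Rgs5, 1 of 4 mural markers, was higher, while the median of the mural list was -0.16. Rgs5 was called as higher at 8 weeks too (1.12, adjusted p = 0.0176 in edgeR). Aif1, 1 of 8 microglial markers with a median of -0.36, was lower. So were 3 of 5 pan-neuronal markers and Ppp1r1b, Penk and Tac1 of striatal projection neurons.

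At 8 weeks no astrocyte gene passed the test between HD and WT mice in edgeR, where 5 had an unadjusted p-value under 0.05, as had 13.9% of all genes tested. DESeq2 called 1, Slc1a2, as higher in HD mice (adjusted p = 0.0153). Of all genes tested 2.1% passed in edgeR, 1.95% higher and 0.15% lower, and the share for DESeq2 is not given here. The median of the 34 genes was 0.17 with 23 fold changes positive, and it depended on single libraries. It was 0.0319 with 20 positive without 8-week HD striatum replicate 2. Without replicate 1 it was 0.32, without the 8-week WT striatum library it was -0.00862 with 17 positive, and without the 8-week WT cortex library it was 0.30. With the sex term or the replicate number as a term it was 0.0156 with 18 positive. With library totals the median of all genes moved to -0.15 and that of the 34 genes to 0.03, with 19 positive. Slc1a2 had a log2 fold change of 0.48 (SE 0.14, adjusted p = 0.133), with 2568 and 2091 CPM against 1826 CPM in striatum and 3710.5 and 3667 CPM against 2417 CPM in cortex. Slc4a4 had one of 0.63 (SE 0.19, adjusted p = 0.147), with 254 and 286 CPM against 168 CPM and 151 and 166 CPM against 106 CPM. Both genes lay above the WT library in all 4 HD libraries, as did Glul, Aqp4 and Agt, against 15.4% of all genes tested. Serpina3n, Mt3, Ttyh1 and Sox9 lay below in all 4, against 15.1%. Without 8-week HD striatum replicate 2, Slc1a2 was called as higher and Sox9 as lower.

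The other genes followed through all comparisons did not pass the test at 8 weeks. Ttyh1 had a log2 fold change of -0.28 (adjusted p = 0.367), Mt2 of 0.38 (adjusted p = 0.436), Ntsr2 of 0.18 (adjusted p = 0.773), Mt1 of 0.13 (adjusted p = 0.792) and Ndrg2 of 0.10 (adjusted p = 0.902). Gfap was 1.52 with an interval from -1.37 to 4.40 (adjusted p = 0.661), and Vim was -0.02 (adjusted p = 0.994). Serpina3n had a log2 fold change of -1.04 (adjusted p = 0.509), and was called as lower with the replicate number as a term (-1.83, adjusted p = 0.0371).

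To ask whether the change with age differed between the genotypes, the change in WT mice was subtracted from that in HD mice. None of the 34 genes passed this test in edgeR, 7 had an unadjusted p-value under 0.05, as had 8.92% of all genes tested, and DESeq2 called 3 (Slc1a2, Slc4a4 and Ttyh1). Of all genes tested 0.116% passed in edgeR, 0.102% with a lower and 0.0136% with a higher value in HD mice. The share for DESeq2 is not given here. The median of the 34 genes was -0.39, and 27 were negative. It was -0.16 with the sex term (20 negative) and -0.19 with library totals (21 negative, beside 0.21 over all genes). It was -0.22 (22 negative) without 8-week HD striatum replicate 2, and without the 13-week WT cortex library -0.17 (23 negative). Without the 13-week WT striatum library or the 8-week WT cortex library it was -0.57 and -0.58. The difference was -0.92 for Slc1a2 (SE 0.20, adjusted p = 0.125), -1.02 for Slc4a4 (SE 0.27, adjusted p = 0.203), -0.66 for Ttyh1 (SE 0.18, adjusted p = 0.240), -0.91 for Ntsr2 (SE 0.30, adjusted p = 0.330) and -0.87 for Mt2 (SE 0.28, adjusted p = 0.313). Ndrg2 was at -0.66 and Mt1 at -0.57 (adjusted p = 0.589 and 0.487). Among reactive genes Serpina3n was at 1.55 (adjusted p = 0.680), Vim at 0.54 (adjusted p = 0.850) and Gfap at 0.17 (adjusted p = 0.989). The Slc1a2 difference was called without 8-week HD striatum replicate 2.

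Striatum and cortex were compared over all 12 libraries, 6 of each region. In edgeR 2 of the 34 genes were higher in striatum and 3 lower, 14.7% of the list. Of all genes tested 20.6% were called, 8.51% higher and 12.1% lower, so the share of the astrocyte genes was not above the background. Slc4a4 was 1.99 times higher in striatum (0.99, SE 0.13, adjusted p = 0.000187), at 156 to 286 CPM against 65.3 to 166 CPM in cortex, and Ntsr2 was higher by 0.54 (adjusted p = 0.0168). The genes lower in striatum were Slc1a2 (-0.51, SE 0.09, adjusted p = 0.00207), Sparcl1 (-0.63, SE 0.19, adjusted p = 0.0338) and Slc7a10 (-0.45, SE 0.12, adjusted p = 0.0217). Slc1a2 was lower in striatum than in cortex in each group of genotype and age. Markers of other cells differed by region as well. All 8 oligodendrocyte markers had a positive fold change (median 1.27, none called), Aif1 and C1qa of microglia and Ccdc153 and Tmem212 of ependyma were higher in striatum, and 3 of 5 pan-neuronal markers were lower. Their part in the values of the astrocyte genes was not tested. With library totals 7 genes were higher in striatum and 1, Slc1a2, lower, with a median of 0.10 beside 0.09 over all genes. How many of all genes were called under that scaling is not given here. Agt had the largest fold change (2.73, SE 0.86, adjusted p = 0.0549), and it was called in DESeq2, with library totals and with the replicate number as a term. It was at 33.9 and 108 CPM in 13-week HD striatum, at 7.38 and 98.1 CPM in 8-week HD striatum and at 1.20 and 11.2 CPM in WT striatum at 8 and 13 weeks. Every cortical library held 2.29 to 8.83 CPM, so the striatal range overlapped the cortical one through the 8-week libraries.

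Some genes share their position with another annotated gene, and the strand setting of the counting is not given in the sources used here, so their reads cannot be told apart. On the opposite strand Gfap overlaps Gm26668, Slc1a2 overlaps Gm13872, Mt2 overlaps Gm45774, Slc7a10 overlaps Lrp3 and Sparcl1 overlaps Gm26703, while Ttyh1 overlaps 9430041J12Rik and D030047H15Rik. So do Aldh1l1 with Gm15756, Glul with Teddm2, S100b with Dip2a, Aqp4 with AC133525.2 and Fgfr3 with G630022F23Rik. On the same strand Aldh1l1 overlaps Gm45901 and Gm44236, Slc1a3 overlaps Gm37310 and Glul overlaps Mir8114. Slc1a2 lies on chromosome 2 at 102658659 to 102790784, Slc4a4 on chromosome 5 at 88886818 to 89239653, Ttyh1 on chromosome 7 at 4119408 to 4136708, Ntsr2 on chromosome 12 at 16653382 to 16660227 and Ndrg2 on chromosome 14 at 51905271 to 51914158, of which Slc4a4, Ntsr2 and Ndrg2 overlap no other annotated gene. Gfap lies on chromosome 11 at 102887336 to 102900912, Vim on chromosome 2 at 13573927 to 13582826 and Serpina3n on chromosome 12 at 104406729 to 104414329.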

How the data were processed

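RNAseq libraries were made from 500 ng of total RNA with a 3′ kit (QuantSeq), and the submitters' processing notes name mm10, Bowtie2 and bedtools. The authors deposited 1 table of raw counts per gene symbol for each of 12 libraries. Neither the counting rule nor its strand setting is given in the sources used here. Library totals were 8814386 to 12091201 counts.

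Groups were taken from the labels (genotype, age and region). Counts were tested with edgeR 4.0.16 in R 4.3.3 (TMM scaling, a robust quasi-likelihood fit, and filterByExpr at 10 counts), with Benjamini-Hochberg adjustment over all genes tested and a threshold of 0.05. The 8 HD libraries were fitted with region and age, or with a mean for each HD group. The fit over all 12 libraries held region and the 4 combinations of genotype with age. Scripts were tested on simulated counts. CPM used TMM-scaled library sizes.

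The 34 genes, their grouping and all marker lists were chosen with earlier results of these data known, so no list is independent support. Full statistics are given for Gfap, Vim, Serpina3n and each gene past the threshold in the age, genotype and age-by-genotype comparisons, and elsewhere for up to 4 called genes in each direction. Other genes named with values were chosen after these were seen. Alternatives were DESeq2 1.42.0, upper-quartile scaling, other filters on low counts, the replicate number as a term, a threshold of 0.01, a mean for each of the 8 groups, Rn45s left out and each library left out. A sex term, library totals without TMM and a block within genotype and age were added after the data were seen. Gene positions are from GENCODE M21 and start-site sequences from RefSeq (GRCm38.p6). The result of 1 marker of striatal projection neurons is not reported here.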

Additional observations from a re-analysis of the deposited data

Results flagged for a closer look

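Slc1a2 was higher in HD than in WT mice at 8 weeks and lower at 13 weeks in every library. In striatum the 8-week HD libraries held 2568 and 2091 CPM against 1826 CPM in WT, and the 13-week HD libraries 1223 and 1358 CPM against 1857 CPM. In cortex the values were 3710.5 and 3667 CPM against 2417 CPM, and 1746 and 1905 CPM against 2338 CPM. The genotype effect at 13 weeks less that at 8 weeks was -0.92 on the log2 scale (SE 0.20), which did not pass the threshold in edgeR (adjusted p = 0.125, 0.000701 to 0.68 over the alternatives). It passed in DESeq2 and without 8-week HD striatum replicate 2. Each WT age is represented by 1 library per region. Slc1a2 alone among the 34 genes turned in this way. Lying above WT in both regions at 8 weeks held for 15.4% of all genes tested, and lying below at 13 weeks for 22.6%. The share of all genes that did both was not computed, so the turn is not set against a background.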

How the results depend on the processing

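Leaving out each library in turn, the number of the 34 genes called ranged from 2 to 17 for age in HD mice (17 without 8-week HD striatum replicate 1), from 0 to 5 for HD against WT at 13 weeks, from 0 to 2 at 8 weeks, from 0 to 1 for the difference in age change, from 3 to 7 for region, from 0 to 8 for age in striatum and from 0 to 15 for age in cortex. DESeq2 called 13, 5, 1, 3, 9, 2 and 9 genes in the same order, where edgeR called 7, 2, 0, 0, 5, 0 and 3. Shares of all genes called are given above for the main edgeR fits only, so the other counts have no background beside them. At a threshold of 0.01, edgeR called 2 genes for age in HD mice, 1 for HD against WT at 13 weeks, 2 for region and 0 for age in cortex. HD against WT at 13 weeks gave 1 call with upper-quartile scaling, with a mean for each of the 8 groups, without Rn45s, with the sex term and with library totals. At 8 weeks the sex term gave 1 call. Region gave 9 calls with the sex term and 8 with library totals. Age in striatum gave 2 calls with no filter on low counts. Age in cortex gave 5 with no filter, and 0 with upper-quartile scaling or library totals. 

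The replicate numbers were not taken as pairing, since the labels tie no libraries of 1 number to each other. The correlation over genes of the replicate difference between striatum and cortex was 0.2316 in HD mice after symptom onset and 0.1035 before symptoms. Between groups of different age, which cannot share a mouse, it ran from -0.0034 to 0.3368. Sex also went with the replicate number in every HD group. These values therefore cannot decide whether striatum and cortex libraries of 1 number share a mouse. The main p-values treat them as independent, which was not tested. With the replicate number as a block, 10 genes were called for age in HD mice, 9 for region and 1 (Serpina3n) for HD against WT at 8 weeks. A block within genotype and age gave 8 for region.

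Directions turned for some genes that did not pass the test. Gfap between the ages in HD mice lay between -0.24 and 1.33 without 1 library, and against WT at 8 weeks it was -0.0305 with the replicate block or the sex term. Serpina3n against WT at 13 weeks was -0.45 with the block, which sets the male HD level against female WT libraries. At 8 weeks Vim was 0.0819 with a mean for each of the 8 groups and -0.65 to 0.83 without 1 library, Mt1 was -0.00306 with library totals and -0.0619 to 0.35 without 1 library, Ndrg2 was -0.0342 and -0.29 to 0.56, and Ntsr2 was -0.0399 to 0.42 without 1 library. Without 1 library, the difference in age change lay between -1.22 and 2.00 for Gfap and between -0.31 and 1.17 for Vim, and the sex term gave 2.70 for Gfap. The cause of these changes was not tested. With 1 library per WT group, differences from WT are the least precise, and counts of 17 to 285 limit Serpina3n.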
